A study of Mus musculus with 8 samples.

Results

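The 10 genes described here encode the adaptor proteins and the first kinases that connect Toll-like receptors to the rest of the cell and were taken as a named group, with earlier results of these data known. They are the TIR-domain adaptors Myd88, Tirap, Ticam1 and Ticam2, the interleukin-1 receptor-associated kinases Irak1, Irak2, Irak3 and Irak4, and their partners Traf6 and Tollip. All 10 were found among the 23761 genes of the FPKM table, where FPKM is the number of sequenced fragments scaled to both the transcript's length and the library's mapped reads, and all 10 passed the filter for testing, a mean of at least 1 FPKM. Bone marrow-derived macrophages (BMDMs), grown from marrow cells in L929 fibroblast-conditioned medium, came from 3-month-old mice on the C57BL/6J background and were sequenced as total RNA, 1 library per mouse. The 4 LysM libraries carry the label LysM Cre/Cre, and the 4 K2KO libraries add KLF2 flox/flox to the same Cre. The descriptions of both groups mark the cells as vehicle samples. Cre sits in the lysozyme M gene Lyz2 and is active in myeloid cells in general, so both groups carry that insertion, and Lyz2 was at 18.6 FPKM in the LysM and 13.2 FPKM in the K2KO libraries on average. The summed FPKM ran from 497253 to 551608 in LysM and from 448235 to 501965 in K2KO libraries. Read numbers are not known, so the depth behind each value cannot be given, and steps among the lowest values gave only relative depths of 0.889 to 1.46 with LysM0 as the unit. The names LysM0 to LysM3 and K2KO0 to K2KO3 are given here after the table's columns, which are numbered from 0 within each genotype. The sample titles are numbered from 1 and are not matched to the columns, so LysM1, for example, need not be the sample with that title.

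When a Toll-like receptor binds a microbial product, its cytoplasmic TIR domain recruits TIR-domain adaptors. MyD88 serves nearly all of these receptors and the interleukin-1 receptor family, and it is brought to TLR2 and TLR4 by TIRAP. TRIF, the product of Ticam1, serves TLR3 and, through TRAM, the product of Ticam2, also TLR4 once it has been taken up into endosomes. MyD88 assembles with IRAK4 and then IRAK1 or IRAK2 into the Myddosome, from which the ubiquitin ligase TRAF6 activates the TAK1 and IKK kinases and so NF-κB. IRAK3, also known as IRAK-M, and TOLLIP are known as brakes on this chain, which macrophages keep ready without a stimulus.

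Klf2, the targeted gene, was measured first as a check on the labels. It stood at 44.1, 52.9, 64.7 and 72.8 FPKM in LysM0 to LysM3 and at 45.5, 41.6, 59.2 and 59.3 FPKM in K2KO0 to K2KO3. The groups overlapped, and the log2 fold change of -0.18 (95% interval -0.57 to 0.21, limma adjusted p = 0.460) was within the spread between libraries, and its sign turned (to 0.050) once each library had been corrected for the GC content and length of its transcripts. The value of a whole gene does not show which exons were read, so a deletion was neither seen nor excluded. For this reason directions are given below for libraries labelled K2KO, after their label alone.

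The macrophage label was borne out by markers in both groups. Cd68 averaged 1834 FPKM in LysM and 1779 FPKM in K2KO libraries, and all 11 macrophage markers were tested, with Mertk higher and Lyz2 lower in the libraries labelled K2KO, though neither was called after the GC and length correction (limma adjusted p = 0.0566 and 0.0527). Transcripts of neutrophil granules were present in both. The 10 neutrophil markers summed to between 187 and 323 FPKM in LysM and between 178 and 311 FPKM in K2KO libraries, with S100a9 as the largest single part, whereas Ly6g stayed under 0.358 FPKM in every library. Of these markers only Camp passed the test, with 13.6 FPKM in LysM and 6.40 FPKM in K2KO libraries. Markers of T and NK cells summed to at most 2.88 FPKM in LysM but 5.22 to 6.28 FPKM in K2KO libraries. Most of each sum was Cd4, called higher, at 1.92 FPKM in LysM and 5.15 FPKM in K2KO libraries on average. Cd3e, Cd3d and Trac reached at most 0.354 FPKM in any library, and Cd8a was under 0.1 FPKM throughout. Markers of B cells (at most 5.44 FPKM in sum), dendritic cells (5.50), fibroblasts (3.35) and mast cells (1.07) were low in every library, and the highest in each sum was a library labelled K2KO. The erythroid list summed to 23.8 FPKM at most and was led by Tfrc, which dividing cells of other kinds also express. The part that such cells play in the results was not tested, and in bulk RNA fewer cells of a type and less RNA per cell cannot be told apart.

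Of the 10 genes, 1 was called as changed. Traf6 was higher in the libraries labelled K2KO, and the other 9 did not pass the test. The call of Traf6 was lost in 11 of 20 other settings and fits, among them the GC and length correction. Genes were called as changed when limma, on log2(FPKM + 0.1), gave an adjusted p under 0.05 together with a log2 fold change beyond 0.26 in either direction, and 18.4% of the 10920 tested genes met both. Higher calls made up 9.84% of the tested genes and lower calls 8.61%, so 1 of 10 is no excess over the table as a whole. With p left unadjusted, 4 of 10 were under 0.05 (Myd88, Irak1, Traf6 and Tollip), against 37.8% of all tested genes. The log2 fold changes of the 10 ran from -0.20 to 0.28 with a median of 0.024, and the median over all tested genes was 0.011. Their median absolute log2 fold change was 0.13, against 0.17 over all tested genes. By mean FPKM, libraries labelled K2KO had more of 7 and less of 3 of the 10, but the sign of Tirap, Ticam2, Irak2 and Irak4, 4 of those 7, turned under at least 1 other setting.

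**Figure D1:**
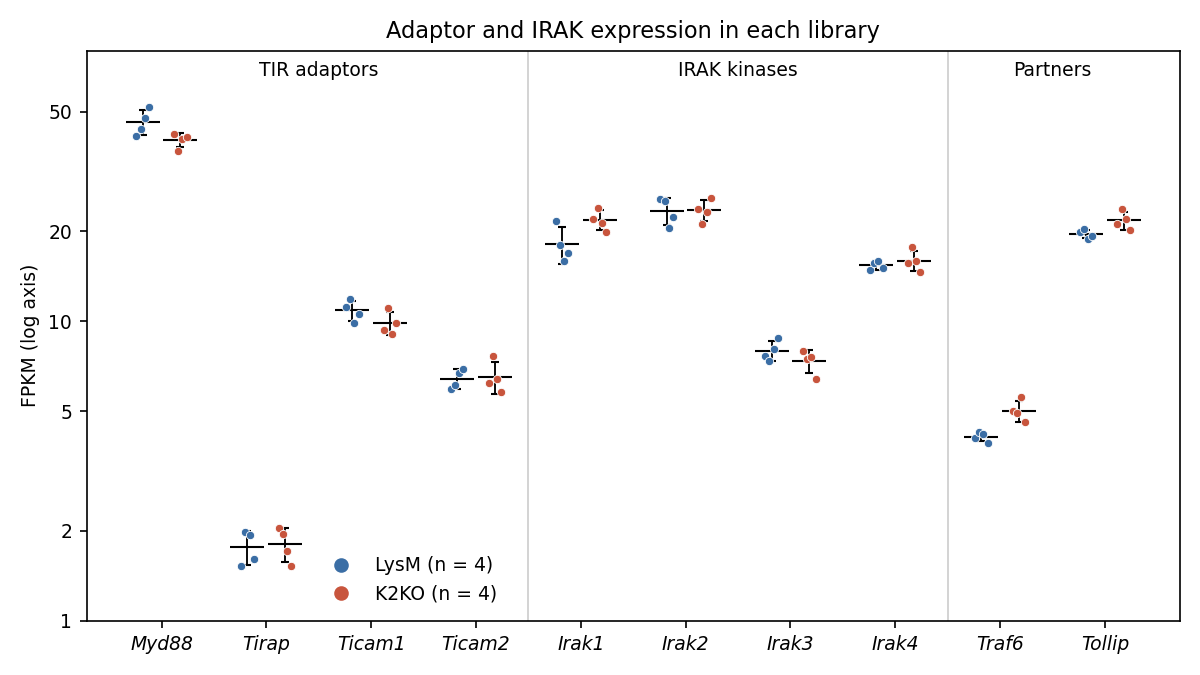
FPKM of the 10 genes on a log axis, in LysM (blue) and K2KO (red) libraries; each point is a library, and the black line and whiskers give the mean and SD of 4. Traf6 is the only gene whose groups do not overlap, and Myd88 is the highest and Tirap the lowest in all 8 libraries.

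Traf6, the ubiquitin ligase below the IRAK kinases, lies on chromosome 2 of GRCm38 (mm10) from 101678429 to 101701669 on the plus strand. It was at 4.07, 4.25, 4.20 and 3.93 FPKM in LysM0 to LysM3 and at 5.001, 4.95, 5.57 and 4.59 FPKM in K2KO0 to K2KO3. Each library labelled K2KO was above each LysM library, a separation that 23.1% of the tested genes also show in one direction or the other (12.9% higher, 10.2% lower). The mean rose from 4.12 ± 0.142 to 5.03 ± 0.403 FPKM (SD, n = 4), a ratio of 1.22 and a log2 fold change of 0.28 (standard error 0.07, 95% interval 0.12 to 0.44, limma adjusted p = 0.0296). The exact two-sided permutation test gave p = 0.0286, the smallest that 4 against 4 libraries allow. The fold change is just beyond the limit of 0.26, and the call was lost in 6 of 8 fits with 1 library left out, although the fold change stayed between 0.23 and 0.32 in all 8. In those 6 fits the calls over all tested genes also fell, from 2014 to between 543 and 1111. The limma adjusted p was 0.0640 without LysM1, 0.0580 without LysM2 and 0.0882 without LysM3. It was 0.0697 without K2KO0, 0.0655 without K2KO1 and 0.0749 without K2KO2. It was 0.0438 without LysM0 and 0.0125 without K2KO3, where the call stood. After the correction for GC content and length the log2 fold change of Traf6 was 0.13 (limma adjusted p = 0.199), and with quantile normalization it was 0.18 (limma adjusted p = 0.0891).

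The tested genes most like Traf6 across the 8 libraries, by Pearson's r of log2(FPKM + 0.1), were Csgalnact2 (r = 0.993), Jrkl (r = 0.986) and Ascc3 (r = 0.983). Their log2 fold changes were 0.32, 0.62 and 0.46, a direction that follows from the choice, since Traf6 itself separates the genotypes.

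The sequence just upstream of the start of Traf6 is shown beside those of Irak1, which had the next largest fold change, and Irak4, the kinase at the base of the Myddosome, because KLF proteins are known to bind CACCC elements and NF-κB is the end point of this pathway. RefSeq (GRCm38.p6) gave a window of 250 bases before the start for 9 of the 10 genes. Some RefSeq starts differ from the gene positions given here, which come from GENCODE. The windows of Myd88, Tirap, Irak3 and Tollip lie inside those positions. Capitals mark CACCC or its reverse complement GGGTG, and, in Irak1, a match to the κB consensus.
Traf6, chr2:101678170-101678419, plus strand: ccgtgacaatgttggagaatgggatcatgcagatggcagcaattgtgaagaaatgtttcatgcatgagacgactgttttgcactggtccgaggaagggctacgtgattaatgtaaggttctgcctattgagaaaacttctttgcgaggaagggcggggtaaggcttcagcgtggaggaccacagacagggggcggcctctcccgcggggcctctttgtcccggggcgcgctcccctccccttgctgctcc
Irak1, chrX:74023922-74024171, minus strand: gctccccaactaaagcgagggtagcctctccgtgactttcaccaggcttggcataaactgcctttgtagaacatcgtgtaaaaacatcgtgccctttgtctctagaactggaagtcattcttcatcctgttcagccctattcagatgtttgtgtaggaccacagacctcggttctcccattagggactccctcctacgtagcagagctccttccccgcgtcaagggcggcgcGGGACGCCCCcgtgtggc
Irak4, chr15:94543410-94543659, plus strand: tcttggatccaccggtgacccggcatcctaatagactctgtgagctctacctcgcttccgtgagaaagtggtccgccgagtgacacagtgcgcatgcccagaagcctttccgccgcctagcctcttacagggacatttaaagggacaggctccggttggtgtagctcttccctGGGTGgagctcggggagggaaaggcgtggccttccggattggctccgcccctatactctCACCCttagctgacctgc
CACCC stood on either strand in 5 of the 9 windows, against 52.0% of all 32851 RefSeq windows of that length. The windows with it were those of Tirap, Irak2, Irak3, Irak4 and Tollip, and those of Traf6, Irak1, Myd88 and Ticam1 had none. The κB consensus was matched in 1 of the 9, against 7.25% of all windows. A match or its absence in these letters says nothing about binding.

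Among the adaptors, Myd88, on chromosome 9 from 119335934 to 119341411, was the most abundant of the 10 genes. It was at 41.7, 43.9, 47.8 and 52.0 FPKM in LysM0 to LysM3 and at 42.2, 37.0, 40.7 and 41.3 FPKM in K2KO0 to K2KO3. Only K2KO0 reached into the LysM range, above LysM0. The log2 fold change was -0.20 (95% interval -0.38 to -0.02, limma adjusted p = 0.104; exact two-sided permutation test, p = 0.0571), so Myd88 was not called. Over 290 exonic bases it overlaps Acaa1a on the opposite strand. Whether the counting used strand is not given in the sources used here, and without it reads of the 2 genes cannot be told apart there.

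Ticam1, on chromosome 17 from 56269319 to 56276786, had 11.2, 11.8, 9.87 and 10.6 FPKM in LysM0 to LysM3. The libraries labelled K2KO had 9.37, 11.1, 9.08 and 9.88 FPKM in the same order, and the groups overlapped (log2 fold change -0.14, 95% interval -0.32 to 0.04, limma adjusted p = 0.230). Ticam1 was thus well below Myd88 in both groups, with a ratio of Myd88 to Ticam1 of 4.30 ± 0.667 in LysM and 4.13 ± 0.545 in K2KO libraries (SD, n = 4).

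Ticam2, on chromosome 18, was at 5.95, 6.10, 6.74 and 6.93 FPKM in LysM0 to LysM3 and at 6.23, 7.64, 6.43 and 5.80 FPKM in K2KO0 to K2KO3. The highest and the lowest of the 8 values were both in libraries labelled K2KO, and the log2 fold change of 0.017 (95% interval -0.19 to 0.23, limma adjusted p = 0.912) turned to -0.096 after the GC and length correction. Its transcripts share 838 bases with those of its neighbour Tmed7 on the same strand, and Tmed7 was called higher (log2 fold change 0.41, limma adjusted p = 0.0129), so the value of Ticam2 depends on how shared reads were divided. Tirap, on chromosome 9 from 35184551 to 35200291, was the least abundant adaptor, at 1.52, 1.98, 1.94 and 1.60 FPKM in LysM0 to LysM3 and 2.03, 1.95, 1.71 and 1.52 FPKM in K2KO0 to K2KO3. The ranges were nearly the same, and the log2 fold change of 0.032 had the widest interval of the 10 genes, -0.28 to 0.34 (limma adjusted p = 0.886), with the sign reversed by quantile normalization (-0.069). On the opposite strand Tirap overlaps the antisense gene Gm39318, which is not among the listed genes, over 446 exonic bases, and Srpr over 39.

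Summed over the 4 adaptors, the LysM libraries held 60.3, 63.8, 66.4 and 71.1 FPKM and the libraries labelled K2KO 59.8, 57.7, 57.9 and 58.5 FPKM. The sums did not overlap, as was the case for 10.2% of single tested genes in the same direction, and Myd88 made up 68.8 to 73.1% of them in LysM and 64.2 to 70.6% in K2KO libraries. The summed FPKM of the whole table was lower by nearly the same factor (0.891 between the group means, against 0.894 for the adaptors). As a share of it the adaptors overlapped, with 0.0119 to 0.0129% in LysM and 0.0117 to 0.0133% in K2KO libraries. The sum of the 4 kinases overlapped too, at 60.3 to 69.6 FPKM in LysM and 66.7 to 70.2 FPKM in K2KO libraries.

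Of the kinases, Irak1, on chromosome X from 74013914 to 74023918, had the largest fold change. It was at 21.6, 17.9, 15.9 and 16.9 FPKM in LysM0 to LysM3 and at 22.0, 23.9, 21.2 and 19.9 FPKM in K2KO0 to K2KO3. The groups overlapped through LysM0 alone, which was above K2KO2 and K2KO3, while the other 3 LysM libraries were below every library labelled K2KO. The log2 fold change of 0.27 (standard error 0.10, 95% interval 0.05 to 0.50) was as large as that of Traf6 within its error, but its limma adjusted p was 0.0793 (exact two-sided permutation test, p = 0.0857) and Irak1 was not called. Without LysM0 it was, with a log2 fold change of 0.36 and a limma adjusted p of 0.0174. In contrast to Traf6, the GC and length correction left the fold change at 0.27 (limma adjusted p = 0.0795).

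Irak2, which sustains later signalling from the Myddosome, lies on chromosome 6 from 113638467 to 113695026. It was at 25.5, 25.2, 20.5 and 22.3 FPKM in LysM0 to LysM3 and at 23.7, 21.1, 23.2 and 25.8 FPKM in K2KO0 to K2KO3. The means of both groups were 23.4 FPKM, and the interval of the log2 fold change ran from -0.19 to 0.21 (limma adjusted p = 0.959). Irak2 exceeded Irak1 in all 4 LysM libraries, by ratios of 1.18 to 1.41. In the libraries labelled K2KO the ratio was 1.08, 0.884, 1.09 and 1.29, so that Irak1 was the higher of the pair in K2KO1. A pseudogene, Gm7229, which is not among the listed genes, matches Irak2 at 95.8% over 645 bases, and Gm43963 overlaps it on the opposite strand over 196 exonic bases.

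Irak4, on chromosome 15 from 94543643 to 94581815, was at 14.8, 15.6, 15.9 and 15.1 FPKM in LysM0 to LysM3 and at 15.6, 17.7, 15.9 and 14.6 FPKM in K2KO0 to K2KO3. Its groups overlapped, and the interval of its log2 fold change was -0.10 to 0.20 (limma adjusted p = 0.607). A stretch of 395 exonic bases of Irak4 overlaps Twf1 on the opposite strand. Irak3, the inhibitory member, lies on chromosome 10 from 120141648 to 120202130. It was at 7.64, 7.38, 8.06 and 8.79 FPKM in LysM0 to LysM3 and at 7.93, 7.46, 7.62 and 6.42 FPKM in K2KO0 to K2KO3, again with overlap (log2 fold change -0.11, 95% interval -0.30 to 0.07, limma adjusted p = 0.334). It was the least abundant of the 4 kinases in every library, with 12.4 ± 1.51% of their summed FPKM in LysM and 10.7 ± 0.814% in K2KO libraries (SD, n = 4). Irak3 shares 192 exonic bases with Tmbim4 on the opposite strand.

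Tollip, which binds IRAK1 and is known to hold it inactive, lies on chromosome 7 from 141874813 to 141918507. It was at 19.9, 20.3, 18.8 and 19.2 FPKM in LysM0 to LysM3 and at 21.1, 23.7, 21.9 and 20.2 FPKM in K2KO0 to K2KO3. Only LysM1 and K2KO3 crossed. The log2 fold change of 0.15 (95% interval 0.01 to 0.29, limma adjusted p = 0.118; exact two-sided permutation test, p = 0.0571) did not pass either threshold.

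**Figure D2:**
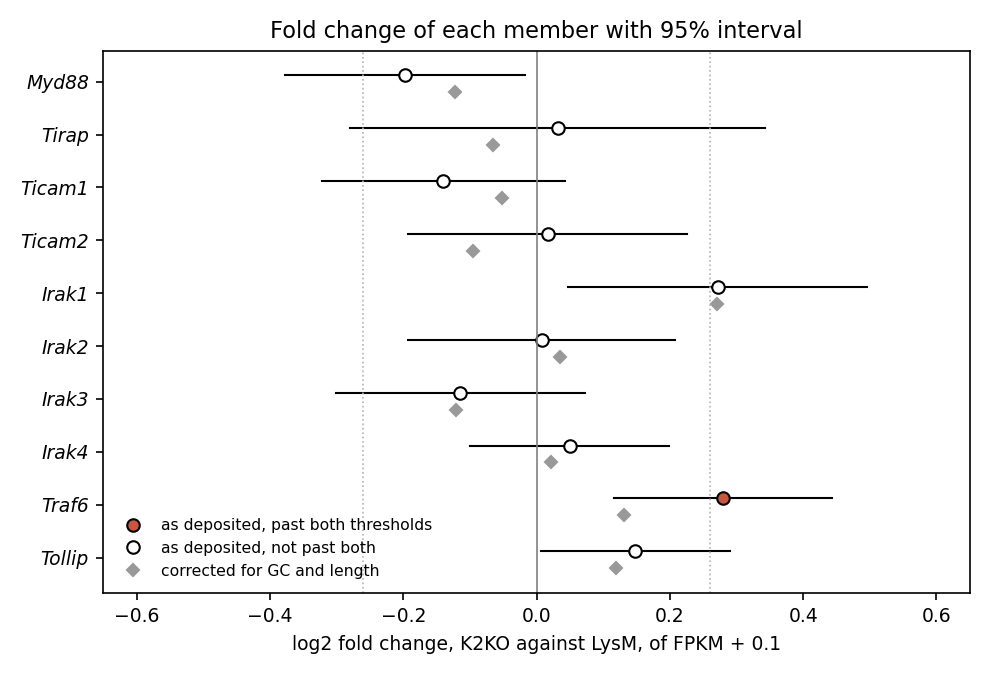
Log2 fold change of each gene (libraries labelled K2KO against LysM, on FPKM + 0.1) with its 95% interval from limma as circles and lines, and after the GC and length correction as grey diamonds; dotted lines mark 0.26 in each direction. Traf6 (red) is the only gene past both thresholds, and its diamond lies at 0.13 while that of Irak1 stays at 0.27.

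FPKM are scaled to transcript length, so levels of different genes can be set side by side, but only roughly. GC content and the overlaps with other genes given above were not allowed for in the order and ratios that follow. In LysM libraries the order was Myd88, Irak2, Tollip, Irak1, Irak4, Ticam1, Irak3, Ticam2, Traf6 and Tirap. The values of Tollip and Irak1 overlapped, as did those of Irak1 and Irak4, and the other neighbours were apart in all 4 libraries of the group. In the libraries labelled K2KO, Irak1 moved before Tollip, and the overlapping neighbours were Irak2 with Irak1, Irak1 with Tollip, and Irak3 with Ticam2. Traf6, at the point where the chain converges, was thus the second lowest in both groups, and only Tirap was below it. Myd88 exceeded Irak4, its direct partner, by 3.02 ± 0.298 times in LysM and 2.55 ± 0.319 times in K2KO libraries (SD, n = 4), and exceeded Tirap by 26.7 ± 4.40 and 22.7 ± 3.59 times.

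Over the 8 libraries, pairs of these genes moved together or apart (Pearson's r of log2 values, given as a description, since the libraries share their genotype and scaling). Irak1 and Tollip had the highest r (0.83), followed by Ticam2 and Irak4 (0.82). Myd88 and Irak1 had the lowest (-0.89), followed by Ticam2 and Irak2 (-0.87) and by Myd88 and Tollip (-0.84).

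The GC content of the transcript moved with the fold change across the whole table (Spearman's rho = -0.40, across genes and not across samples, with 10899 genes that are no independent replicates). Traf6, Tirap and Ticam2 fell in the eighth of the tested genes with 45.0 to 47.4% GC, where 11.2% were called higher and 4.33% lower, with a median log2 fold change of 0.08. Myd88, Irak1 and Irak2 fell in the eighth with 52.1 to 54.4%, where 3.60% were called higher and 10.4% lower, with a median of -0.04. Irak1 therefore lay against the trend and Traf6 and Myd88 with it. The part of GC content in single calls was not tested beyond the correction. With it 9.12% of 10899 genes were called and none of the 10 members.

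**Figure D3:**
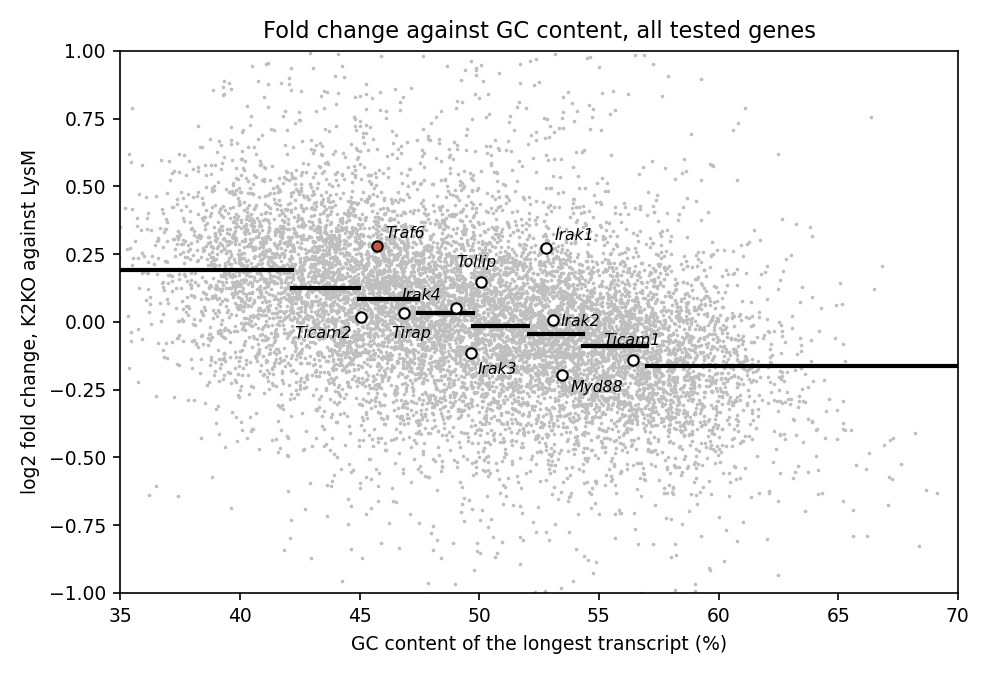
Log2 fold change (libraries labelled K2KO against LysM) against the GC content of the longest transcript in percent, with a grey point for each tested gene, a black bar for the median of each eighth by GC content, and circles for the 10 genes; 259 genes lie outside the axes. Traf6 (red, called) and Irak1 stand at nearly the same fold change, at 45.7 and 52.8% GC.

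Other genes of the pathway were taken from lists by role, and 26 of the 106 tested were called, of which 11 were higher in libraries labelled K2KO and 15 lower (24.5%, against 18.4% of all tested genes). Without LysM3 the number was 8, in a fit that called 4.98% of all tested genes, and with the GC and length correction it was 16, where 9.12% of all were called. By list the share called was 20% for receptors and for receptor accessories, and 30% for the ubiquitin, TAK1 and IKK list. It was 18.8% for the TRIF arm, 18.2% for inhibitors and 34.8% for targets. Thus 4 of the 6 lists lay near the share over all tested genes. In fits with 1 library left out, 0 to 5 receptors, 2 to 5 accessories and 1 to 7 of the ubiquitin list were called. For the TRIF arm, inhibitors and targets the numbers were 2 to 4, 1 to 6 and 2 to 11. Over all tested genes those fits called 543 to 2863. The GC and length correction also added calls for Hsp90b1 (-0.37), Ube2n (-0.31), Zc3h12a (0.42) and Tnf (0.54), which are named for this after their values were seen. Among the 24 named below, the call stood in all 8 fits with 1 library left out for Pik3ap1, Tmed7, Ube2d3, Ikbke, Tank, Cyld, Ccl4 and Marcksl1, and was lost in at least 1 fit for the other 16. With the GC and length correction 11 of the 24 remained called.

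Of the receptors, 10 of 17 were tested, and 2 were higher and none lower, with a median log2 fold change of 0.23. Tlr8, an endosomal receptor of RNA, was at 11.2, 8.01, 5.97 and 6.09 FPKM in LysM0 to LysM3 and at 26.1, 27.7, 19.7 and 11.0 FPKM in K2KO0 to K2KO3. Its groups overlapped only through LysM0 and K2KO3, and limma gave a log2 fold change of 1.38 with a standard error of 0.30 (adjusted p = 0.0184). Tlr13, which recognises bacterial ribosomal RNA, rose by 0.33 (limma adjusted p = 0.0270), with no overlap. Of the receptor accessories 15 of 18 were tested, 2 were higher and 1 lower. Pik3ap1, which encodes the phosphoinositide 3-kinase adaptor BCAP and is itself a TIR-domain protein, rose from 41.5 ± 6.41 to 70.5 ± 11.8 FPKM (SD, n = 4; log2 fold change 0.76, limma adjusted p = 0.0126). Tmed7, which carries TLR4 towards the surface, was higher, and Unc93b1, which escorts endosomal receptors such as TLR7 and TLR9, fell by 0.36 in log2 units (limma, adjusted p = 0.0144). After the GC and length correction, Tlr13, Tmed7 and Unc93b1 were no longer called, and with quantile normalization Unc93b1 was at -0.076 (limma adjusted p = 0.368).

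Downstream of Traf6, all 20 genes of the ubiquitin, TAK1 and IKK list were tested, with 4 higher, 2 lower and a median of 0.08. The higher genes were Ube2d3 (log2 fold change 0.48) and Ube2v1 (0.44), which encode a ubiquitin-conjugating enzyme and a partner of one, Peli1 (0.35), a ubiquitin ligase that acts on IRAK1, and Ikbkg (0.42), the regulatory subunit of IKK. Map3k5 (-0.40) and Rbck1 (-0.30), a subunit of the linear ubiquitin ligase, were lower. Their limma adjusted p ran from 0.0135 for Ube2d3 to 0.0364 for Rbck1. Only Ube2v1 and Map3k5 were still called after the GC and length correction. In the TRIF arm all 16 genes were tested, and 1 was higher and 2 were lower. Tank, a scaffold of the TBK1 kinase, rose by 0.64 (limma adjusted p = 0.0135), while Ikbke, a kinase of interferon regulatory factors, fell from 71.4 ± 6.53 to 52.4 ± 3.17 FPKM (SD, n = 4; log2 fold change -0.44, limma adjusted p = 0.0121). Tradd changed by -0.27 (limma adjusted p = 0.0462), was called in 1 of 8 fits with a library left out, and was at -0.085 (limma adjusted p = 0.287) after the GC and length correction.

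Of the 26 inhibitors 22 were tested, with 2 higher and 2 lower. The deubiquitinases Cyld and Tnfaip3, which remove the chains that TRAF6 builds, rose by 0.45 and 0.35 (limma adjusted p = 0.0112 and 0.0314), and the nuclear IκB proteins Nfkbid and Bcl3 changed by -0.45 and -0.30 (limma adjusted p = 0.0239 and 0.0430). None of these 4 was called after the correction, which left Zc3h12a as the 1 inhibitor called. Of the 30 genes that the pathway induces, 23 were tested, 8 were lower and none higher, with a median log2 fold change of -0.26 (8.61% of all tested genes were called lower). After the GC and length correction, where 4.33% of all tested genes were lower and 4.79% higher, 6 targets were lower and 1 was higher, Tnf (limma adjusted p = 0.0430), which was at 0.44 (limma adjusted p = 0.0511) without the correction. This list was drawn up with earlier results of these data known. Among the lower genes were the chemokine genes Ccl4 (-0.70, limma adjusted p = 0.00491) and Ccl3 (-0.74, limma adjusted p = 0.0166), Marcksl1 (-0.82), Ier3 (-0.59), Il10 (-0.65), which encodes an anti-inflammatory cytokine, and Nfkbiz (-0.40), an inducible IκB protein. Of these 6, Ier3 was not called after the correction (-0.42, limma adjusted p = 0.0788), and Il10 was called in 1 of 8 fits with a library left out. Without LysM3 the number of targets called was 2, with calls reduced to 4.98% over all tested genes. It was also 2 with the correction plus a block on the column number, and 2 with ordinary least squares. Over all tested genes those settings called 887 and 746. The difference between this list and the 10 signalling genes was not tested.

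**Figure D4:**
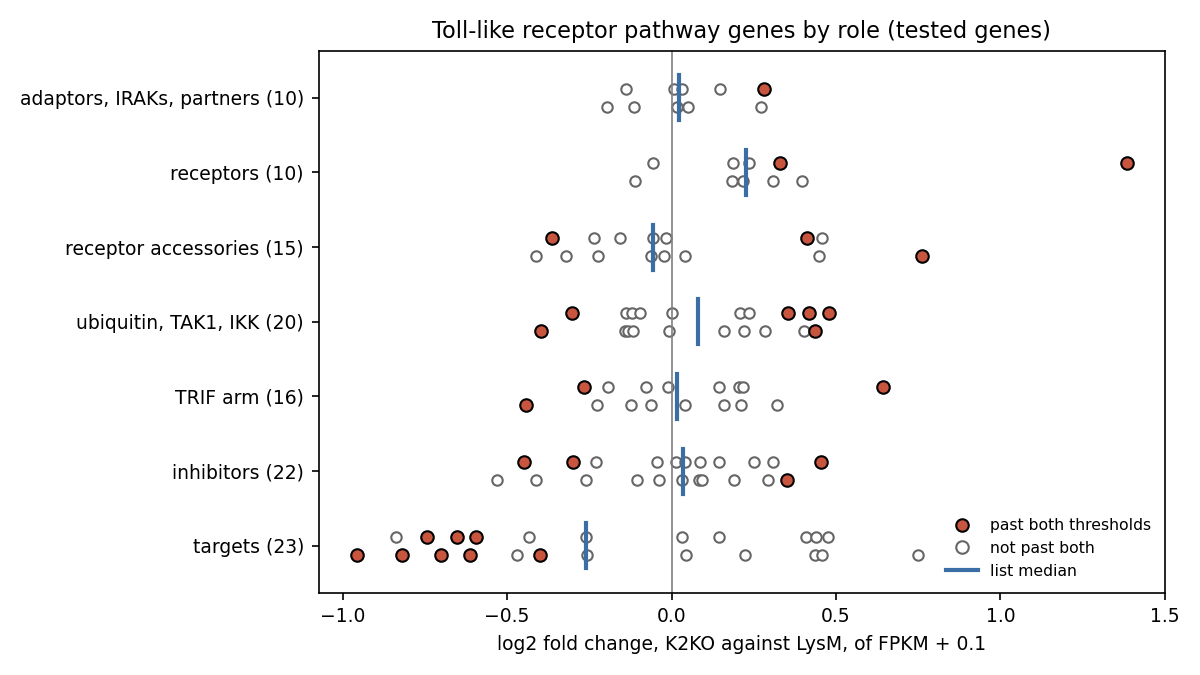
Log2 fold change (libraries labelled K2KO against LysM, on FPKM + 0.1) of the tested genes of each list, with the number tested in brackets; red points are past both thresholds, open points are not, and blue bars are medians. The 10 signalling genes lie between -0.20 and 0.28, and the 8 red points of the targets are all lower.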

How the data were processed

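BMDMs of 4 LysM and 4 K2KO mice were sequenced from Illumina TruSeq Stranded Total RNA libraries. The authors deposited FPKM for each library. The methods name TopHat2 as the aligner to mm10 and Cufflinks for the FPKM. The submitters' processing notes list STAR, Cufflinks and Cuffdiff. Which of these tools made the deposited values is not known, and versions are not given in the sources used here. A column's name shows its genotype, not which mouse it came from. No other per-sample values were present.

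Genes with a mean of at least 1 FPKM (10920 of 23761) were compared as log2(FPKM + 0.1) with limma 3.58.1 (intensity trend, no covariate) in R 4.3.3, adjusted by Benjamini-Hochberg over all of them. The pseudocount makes the fold changes of low genes smaller. FPKM hold no counts, so no count test or counting interval was used. Single genes were also compared by exact two-sided permutation of the libraries with scipy 1.17.1.

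Positions, transcript length and GC content (longest transcript) come from GENCODE M21 on GRCm38, which held 23645 of the listed genes, and shared sequence was searched with BLAST 2.17.0 (at least 95% identity over 200 bases). The correction for GC content and length was a local regression of each library with a span of 0.3. The other settings were other pseudocounts, filters and scalings, no trend, ordinary least squares, no limit on the fold change, a block on the column number, and each library left out. Of each list, the text names up to 6 called genes with the smallest adjusted p, and for a called member the 3 genes with the highest correlation. The members and lists were chosen with earlier results of these data known.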

Additional observations from a re-analysis of the deposited data

Results flagged for a closer look

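Among 70 groups of 4 libraries (the 10 genes, Klf2 and the 24 named pathway genes in each genotype), in 1 a single library stood far apart, and about 3.5 such groups come by chance. Rbck1 was at 51.2 FPKM in K2KO3, against 40.9 to 42.1 FPKM in the other 3 libraries labelled K2KO.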

How the results depend on the processing

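Of the 10 genes, 8 were not called under any of 12 other settings with all libraries or 8 fits with 1 library left out; the exceptions were Traf6 and, without LysM0, Irak1. The number of members called was 0 with a pseudocount of 1, with no filter on low values, with quantile normalization and with the GC and length correction, alone (adjusted p of Traf6 0.199) or with the replicate block (0.253), and ranged from 0 to 2 with 1 library left out. With a pseudocount of 1, Traf6 missed only the limit on the fold change (0.23). Over all tested genes 1832 were called with that pseudocount and 1534 with quantile normalization, against 2014 in the main fit. In the pathway lists together those 2 settings called 25 and 23. All tested genes called numbered 483 with no filter, 746 with ordinary least squares, 994 with the correction and 887 with the correction and block, and 543 (without LysM3) to 2863 (without K2KO3) with 1 library left out. For the pathway lists together these numbers were 5, 11, 16 and 10, and 8 to 37. Upper-quartile scaling raised the share of higher genes among those called from 53.3 to 64.1%. Signs turned for Tirap, Ticam2, Irak2 and Irak4, all near 0, and for Klf2. Tirap was at -0.069 with quantile normalization and at -0.066 with the correction, with or without the block, Ticam2 at -0.040 and at -0.096, and Klf2 at 0.050 with the correction, with or without the block. With 1 library left out, Tirap ranged from -0.032 to 0.11, Ticam2 from -0.061 to 0.070, Irak2 from -0.054 to 0.056 and Irak4 from -0.00048 to 0.090. Over all tested genes, columns with the same number did not deviate together (r = -0.07, 0.02, 0.07 and -0.06). The neutrophil marker sums did follow the column number, with 187, 273, 235 and 323 FPKM in LysM0 to LysM3. They were 178, 296, 233 and 311 FPKM in K2KO0 to K2KO3. Whether libraries with the same column number were prepared together is not known and was not tested. With that number as a replicate block, 1 member (Traf6, limma adjusted p = 0.0347), 2057 tested genes and 25 pathway genes were called. No read counts are known, so what depth limits cannot be given.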
